A study of Saccharomyces cerevisiae with 18 samples.

Results

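Most open chromatin in budding yeast lies at gene starts, and the peaks described here are the ones that do not. They are the 351 nuclear ATAC-seq peaks that had no coding 5' end inside them or within 250 bp and no tRNA gene inside them or within 100 bp, 17.2% of the 2042 nuclear peaks in the deposited table of 2086 peaks. They were split by position into 122 peaks that lay wholly inside a coding gene, 113 peaks at gene 3' ends (a coding 3' end in the peak or within 100 bp of it) and 116 peaks in other intergenic DNA. The peaks they are set against are 1476 gene-start peaks, which have a coding 5' end within 250 bp. The ends are those of the R64 coding gene models, so the distances run to start and stop codons and not to transcription starts, and a promoter with a long untranslated leader can fall outside the limit.

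The study followed Saccharomyces cerevisiae in a fermenter through the yeast metabolic cycle, with 1 library at each of 18 successive time points. The labels give the phase of each: Reductive Charging covers time points 1 to 5 and again 16 to 18 (8 libraries), Oxidative covers 6 to 10 (5 libraries) and Reductive Building covers 11 to 15 (5 libraries). The strain is not given in the sources used here. Libraries of the same phase served as replicates although each is another time point and nothing says that they came from separate cultures, so p-values measure only the spread between time points. Coverage was uneven. Total counts ran from 21254 to 29314373 per library, and time points 11, 13, 15, 16 and 18 left 229 to 1720 of the 2042 nuclear peaks empty. No more than 42 were empty in any of the other 13 libraries. Those 13, called well-covered here, comprised 6 Reductive Charging, 5 Oxidative and 2 Reductive Building libraries, each with at least 6372179 counts. Levels are given as nuclear CPM, the CPM computed over counts in nuclear peaks alone, or as density, nuclear CPM per kb of peak.

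As background, ATAC-seq marks DNA that a transposase can reach. In yeast the widest such gaps between nucleosomes lie upstream of genes, where activators and the transcription machinery bind, and narrower gaps lie at gene 3' ends, where transcripts are cleaved. Coding regions are packed in regular nucleosomes, which are displaced when a gene is transcribed heavily. Near the chromosome ends lie repeated Y' elements, which carry helicase-like genes in many near-identical copies, and families of cell-surface genes. In the metabolic cycle, genes for ribosomes and translation are expressed in the Oxidative phase, mitochondrial genes in Reductive Building, and stress and storage genes in Reductive Charging.

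The 3 classes differed in size and place. Peaks inside genes had a median length of 333.5 bp, against 627.5 bp for gene-start peaks, and peaks at 3' ends and in other intergenic DNA had medians of 504 bp and 495.5 bp. The peaks inside genes fell in 102 different genes. Counted once per peak, so that a gene with several peaks enters several times, the host genes had a median length of 3130.5 bp. All 6002 nuclear coding genes had a median of 1200 bp. The rule itself favours long genes, because a peak must lie wholly inside the gene and over 250 bp from any start. With each gene cut into 5 equal stretches from its 5' end, the midpoints of the 122 peaks numbered 8, 30, 25, 39 and 20 per stretch. The first stretch is thinned by the rule itself, which bars the 250 bp next to a start. Of the peaks at 3' ends, 95 contained the end and 9 lay at the meeting point of 2 coding 3' ends. The rule asks only for a 3' end in or near the peak, so such a peak can lie largely in coding sequence. Of the other intergenic peaks, 33 lay between the 5' ends of divergent genes, 61 between a 3' end and a 5' end, 11 between the 3' ends of convergent genes and 11 beyond the last coding gene of a chromosome arm.

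Chromosome ends held many of these peaks. Within 20 kb of a chromosome end, taken as the last annotated gene or peak, lay 38 of the peaks inside genes (31.1%), 21 of those at 3' ends (18.6%) and 31 of the other intergenic ones (26.7%), against 73 of the gene-start peaks (4.95%). Genes of Y' elements overlapped 31 peaks inside genes and 16 at 3' ends, and 14 peaks began at the first base of a chromosome. Ty retrotransposon genes, also present in many copies, held a further 15 of the peaks inside genes. Reads from such copies cannot be assigned to one of them with certainty, and how multiply mapping reads were treated is not given in the sources used here, so the peaks in Y' and Ty genes are neither certain in place nor independent of each other.

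By strength the order of the classes was inside a gene, gene 3' end, other intergenic, gene start. The median peak, taken by its mean density over the 13 well-covered libraries, had 146 nuclear CPM per kb inside a gene, 236 at a 3' end and 290.5 in other intergenic DNA, against 327 at a gene start. The classes overlapped widely: 9 of the 122 peaks inside genes, 41 of the 113 at 3' ends and 54 of the 116 other intergenic peaks exceeded the median gene-start peak. Of the peaks inside genes, 77 lay in a gene that also had a gene-start peak, and 68 of these were weaker per kb than that peak, with a median of 30.8% of its density. Near the limit of the rule the strength changed little: the 53 peaks whose nearest 5' end lay 251 to 300 bp away had a median density of 245, and the 52 peaks at 201 to 250 bp, just left out, had 217.

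**Figure D1:**
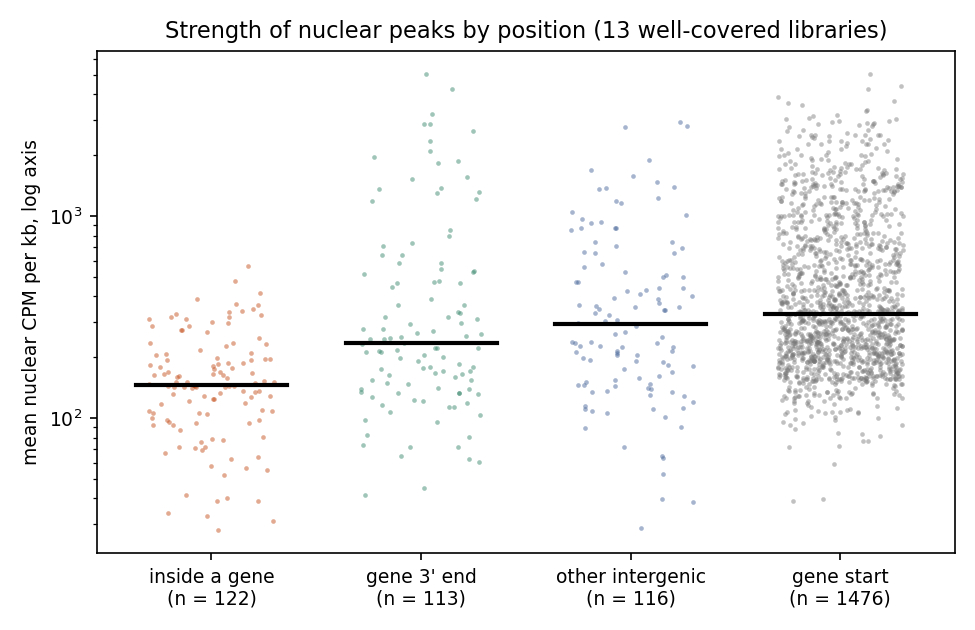
Mean density of each nuclear peak over the 13 well-covered libraries (nuclear CPM per kb, log axis) by position; each point is a peak and each bar the class median. The medians are 146 inside a gene, 236 at gene 3' ends, 290.5 in other intergenic DNA and 327 at gene starts, and no peak inside a gene exceeds 564.

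The strongest peaks away from gene starts fell into a few kinds of place. The strongest of all lay at the 3' end of YRF1-4, a Y' helicase-like gene, at chrXII:1070924-1072219, with a mean density of 5076; it lay 289 bp from the start of the next Y' gene, YRF1-5. The 3' ends of YLL067C, YJL225C and YRF1-8, also Y' genes, followed with 3203, 2847 and 2841. The exception among the 5 strongest at 3' ends was chrIV:635513-636730, at the end of the flippase gene DNF2, with a density of 4277; it also lay 409 bp from the start of GIS1, which encodes a zinc-finger regulator of genes expressed when glucose runs out. It had 5592, 4562, 4328, 4718 and 2866 nuclear CPM at the Oxidative time points 6 to 10, against a lowest, median and highest value of 5054, 6305 and 6938 in the 6 Reductive Charging libraries. These ranges overlapped, and the difference did not pass the test described below (log2 fold change -0.52 ± 0.19 SE, edgeR adjusted p = 0.17).

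In other intergenic DNA, 3 of the 5 strongest peaks lay 252 to 263 bp from a 5' end, just beyond the limit. These lay between PDR12, a weak-acid exporter, and SUR1, a sphingolipid enzyme (chrXVI:450640-451631, density 2917), between YBL111C and PAU9 (chrII:5261-6509, 2802), and between TYE7, an activator of glycolytic genes, and REV1, a DNA repair enzyme (chrXV:978329-979741, 2749). The TYE7 peak was among the steadiest: it had 3734, 3841, 4542, 4067 and 3879 nuclear CPM in the 5 Oxidative libraries, against 3492, 3925 and 4356 as the lowest, median and highest of the 6 Reductive Charging libraries, and 3769.5 and 3219.9 at time points 12 and 14 of Reductive Building. The 11 peaks beyond the last coding gene had a median density of 870, against 227 for the 33 between divergent 5' ends. The weakest other intergenic peak, between YDR170W-A and the small heat-shock protein gene HSP42, had a density of 28.5.

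Inside genes the strongest peak lay in UME6, the regulator of early meiotic genes, at chrIV:866528-867152, 370 bp from its start codon, with a density of 564. It had 435, 241, 368, 453 and 298 nuclear CPM at the Oxidative time points 6 to 10, against 288, 359 and 493 as the lowest, median and highest Reductive Charging values, so the phases overlapped. Next came HPF1, a mannoprotein of the cell surface (477), YRF1-4 (417), YJL225C (387) and YFL067W (369), which but for HPF1 lie within 20 kb of a chromosome end. The weakest, in the Ty gene YLR410W-B, had a density of 27.8.

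Over the cycle, the peaks inside genes differed more between phases than either other class did. Their median density was 101 ± 24.5 in Reductive Charging (SD, n = 6), 173 ± 63.9 in Oxidative (n = 5) and 161 ± 4.52 in Reductive Building libraries (n = 2). By time point it was 136, 126, 93.9, 98.9 and 79.8 at time points 1 to 5, then 113, 114, 254, 161 and 222 at the Oxidative time points 6 to 10, 158 and 164 at time points 12 and 14, and 74.7 at time point 17. Time points 8, 9 and 10 therefore stood above all 6 Reductive Charging libraries, while time points 6 and 7 lay within their range. Gene-start peaks had medians of 326 ± 24.7, 337 ± 31.8 and 370 ± 5.26 in the same phases. Relative to gene-start peaks, the log2 ratio of the class median was -1.72 ± 0.30 in Reductive Charging, -1.04 ± 0.52 in Oxidative and -1.20 ± 0.06 in Reductive Building. With the poorly covered libraries that gave a ratio, it was -1.48 ± 0.69 in Reductive Charging (n = 7) and -1.97 ± 1.05 in Reductive Building (n = 4). The order of these phases then turned.

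The other classes varied less. Peaks at 3' ends had median densities of 224 ± 38.4 in Reductive Charging, 233 ± 31.3 in Oxidative and 258 ± 6.94 in Reductive Building, and other intergenic peaks had 282 ± 33.7, 280.4 ± 46.9 and 283 ± 6.86. Differences of this size were within the spread between the libraries of a phase. The poorly covered libraries gave medians inside genes of 62.7 at time point 11, 19.8 at time point 13, 0 at time points 15 and 16 and 192 at time point 18; the last, a Reductive Charging library, was as high as the Oxidative ones.

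**Figure D2:**
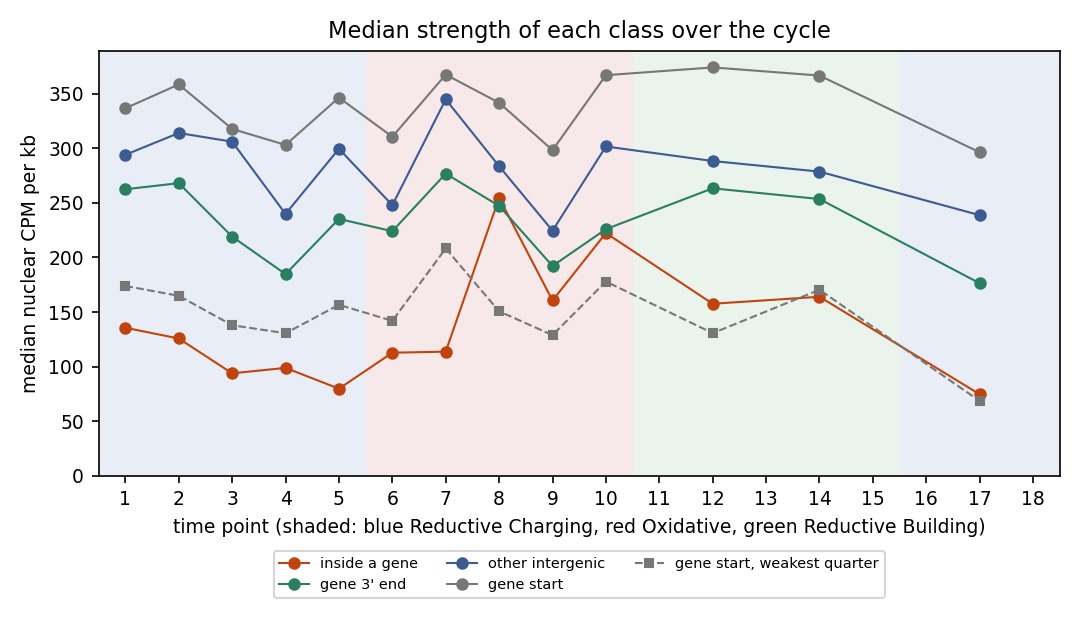
Median density of each class (nuclear CPM per kb) at the 13 well-covered time points, with the gene-start peaks and those of them below their lower quartile (dashed) beside them; shading marks the phases. The line for peaks inside genes stands at 254, 161 and 222 at time points 8, 9 and 10, against 74.7 to 136 in Reductive Charging.

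Fold changes of single peaks gave the same order of phases inside genes. Fold changes come from edgeR's quasi-likelihood fit of the whole table, scaled so that most peaks are taken as unchanged. For Oxidative over Reductive Charging in the 13 well-covered libraries, the median log2 fold change was 0.57 inside genes, -0.16 at 3' ends and -0.07 in other intergenic DNA, against 0.02 at gene starts. It was positive for 99 of the 122 peaks inside genes (81.1%), against 762 of the 1476 gene-start peaks (51.6%). Among weak peaks alone, those below 209 nuclear CPM per kb, the lower quartile of gene-start peaks, the median was 0.67 for the 93 peaks inside genes and 0.18 for the 369 gene-start peaks. Over all 18 libraries these were 0.46 and 0.34. For Reductive Building over Reductive Charging the median inside genes was 0.57, with 92 of 122 positive, against 0.00 at gene starts. With all 18 libraries it was 0.20, with 68 of 122 positive. The other medians were 0.51 at 3' ends, 0.09 in other intergenic DNA and -0.17 at gene starts, so that the class at 3' ends was the highest. The 21 peaks at 3' ends within 20 kb of a chromosome end had 0.80, and the 92 away from chromosome ends had 0.13. At the poorly covered Reductive Building time points 11, 13 and 15, the median density of those 21 was 3319, 789 and 5467. In Reductive Charging it ran from 916 to 1906 over all 8 libraries. For Reductive Building over Oxidative the median log2 fold change inside genes was -0.07 in the 13 libraries, against 0.01 at gene starts.

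Positive fold changes were frequent in each kind of host gene. The 31 peaks in Y' genes had a median log2 fold change of 0.62 for Oxidative over Reductive Charging, with 30 positive, the 15 in Ty genes had 0.48, with 14 positive, and the 76 in all other genes had 0.61, with 55 positive. The median density of these 76 peaks was 99.5, 124, 250.5, 147 and 189 at the Oxidative time points 6 to 10, against 66.7 to 133 in the Reductive Charging libraries. For Reductive Building over Reductive Charging the Y', Ty and other genes had medians of 0.58, 0.83 and 0.35. Over all 18 libraries these were 0.40, 1.06 and -0.26, so the sign in the other genes turned, with 33 of 76 positive. With all 18 libraries the medians for Oxidative over Reductive Charging were 0.41 inside genes and 0.14 at gene starts.

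Several library properties moved with these values, and their part was not tested. Nuclear peaks held 39.0% ± 8.02 of all counts in the Oxidative libraries (n = 5), against 28.6% ± 4.69 in the Reductive Charging libraries (n = 6). At time points 6 to 10 this share was 26.8%, 44.7%, 45.2%, 35.0% and 43.4%. The median density inside genes at those time points was 113, 114, 254, 161 and 222. Of the 6 Reductive Charging libraries 5 came before the Oxidative ones. The series was collected in 2 batches that the labels do not assign to libraries, so batch and phase cannot be told apart. Scaling by total counts moved the median of all peaks to 0.52 for Oxidative over Reductive Charging; on that scale the class medians were 1.12 inside genes, 0.35 at 3' ends and 0.44 in other intergenic DNA, so the sign at 3' ends and in other intergenic DNA turned while the order of the classes did not.

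**Figure D3:**
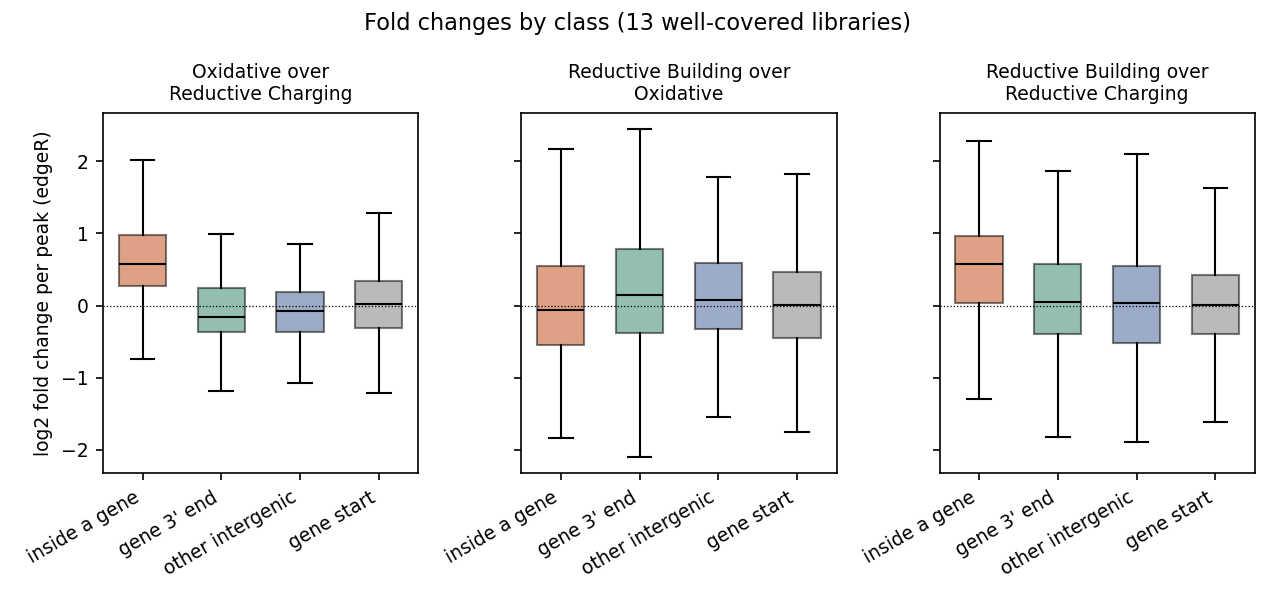
Log2 fold change per peak from edgeR (13 well-covered libraries) by class for each pair of phases; boxes span the quartiles, lines are medians and whiskers reach the last value within the usual box-plot range, with points beyond not drawn. Inside genes the median is 0.57 for Oxidative over Reductive Charging and 0.57 for Reductive Building over Reductive Charging, against 0.02 and 0.00 at gene starts.

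Genes of protein synthesis were among the hosts of peaks with large fold changes. Of 21 genes on a list of translation elongation and initiation factors, 6 peaks away from gene starts belonged to 4: 3 peaks inside YEF3, the fungal elongation factor eEF3, 1 inside EFT1 (eEF2), 1 inside CAM1 (an eEF1B subunit) and 1 at the 3' end of TEF1 (eEF1A). Their median log2 fold change for Oxidative over Reductive Charging was 1.70, and 1 of the 6 passed the test in the 13 libraries, where 2.78% of all peaks did. Of 138 cytosolic ribosomal protein genes, 5 held a peak inside (RPL7A, RPS4B, RPL2B, RPS14B and RPL3) and 3 had one at the 3' end (RPS26B, RPL7A and RPL14B); their median was 1.23 and 1 of the 8 passed, against the same 2.78%. These lists were chosen with earlier results of these data known, so the medians are a description. All nuclear peaks had a median of 0.02, but all peaks inside genes had 0.57. That class holds 5 of the 6 translation factor peaks and 5 of the 8 ribosomal protein peaks.

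YEF3 held 3 of these peaks. The third and longest peak, chrXII:638772-639833, lay 81 bp from the 3' end of the coding region and 1992 bp from its start. It had 106, 136, 523, 172 and 181 nuclear CPM at time points 6 to 10, against 0, 32.0 and 58.3 as the lowest, median and highest of the 6 Reductive Charging libraries, and 46.8 and 5.37 at time points 12 and 14 of Reductive Building. All 5 Oxidative libraries exceeded all 6 well-covered Reductive Charging libraries, but the change missed the threshold over all peaks (log2 fold change 2.88 ± 0.84 SE, edgeR adjusted p = 0.0716). The poorly covered Reductive Charging time points 16 and 18 had 9861 (91 counts) and 9.62. The middle peak, chrXII:637938-638415, had 123, 75.0, 93.7, 186 and 119 in the Oxidative libraries, against 0.339, 19.2 and 47.8, again without overlap among well-covered libraries (2.32 ± 0.82, edgeR adjusted p = 0.151). The first peak overlapped between phases, with 5.05 to 104 in Oxidative and 2.96 to 33.3 in Reductive Charging libraries. YEF3's own gene-start peak had a log2 fold change of -0.12. A close paralogue, HEF3, shares sequence with YEF3, as EFT2 does with EFT1 and TEF2 with TEF1. Part of these counts may therefore belong to the copy. The same limit holds for RPL2B, RPS14B, RPL7A, RPS4B and SAM1, which also belong to pairs of similar genes.

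Peaks inside ribosomal protein genes were high in parts of the Oxidative phase, but apart from RPS14B below none passed. Inside RPL3, chrXV:445198-445644 had 101, 33.8, 119, 110.2 and 91.0 nuclear CPM at time points 6 to 10, against 3.41, 27.7 and 51.3 in Reductive Charging (1.64 ± 0.64, edgeR adjusted p = 0.189). Inside RPL2B, chrIX:317347-317709 had 67.9, 59.2, 113, 185 and 33.6, against 12.9, 33.9 and 47.3 (1.44 ± 0.77, edgeR adjusted p = 0.356). In both, 4 of the 5 Oxidative libraries stood above every well-covered Reductive Charging library. At the poorly covered Reductive Building time points 11, 13 and 15 the RPL2B peak had 218, 1.07 and 0, the first above every Oxidative library. Reductive Charging time point 18, also poorly covered, had 45.3 there. The gene-start peaks of RPL3 and RPL2B had log2 fold changes of -0.27 and -0.14. CAM1 did not share the pattern: its peak had 4.93, 11.9, 21.9, 0.23 and 14.5 in the Oxidative libraries, against 0, 12.2 and 45.3 in Reductive Charging.

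**Figure D4:**
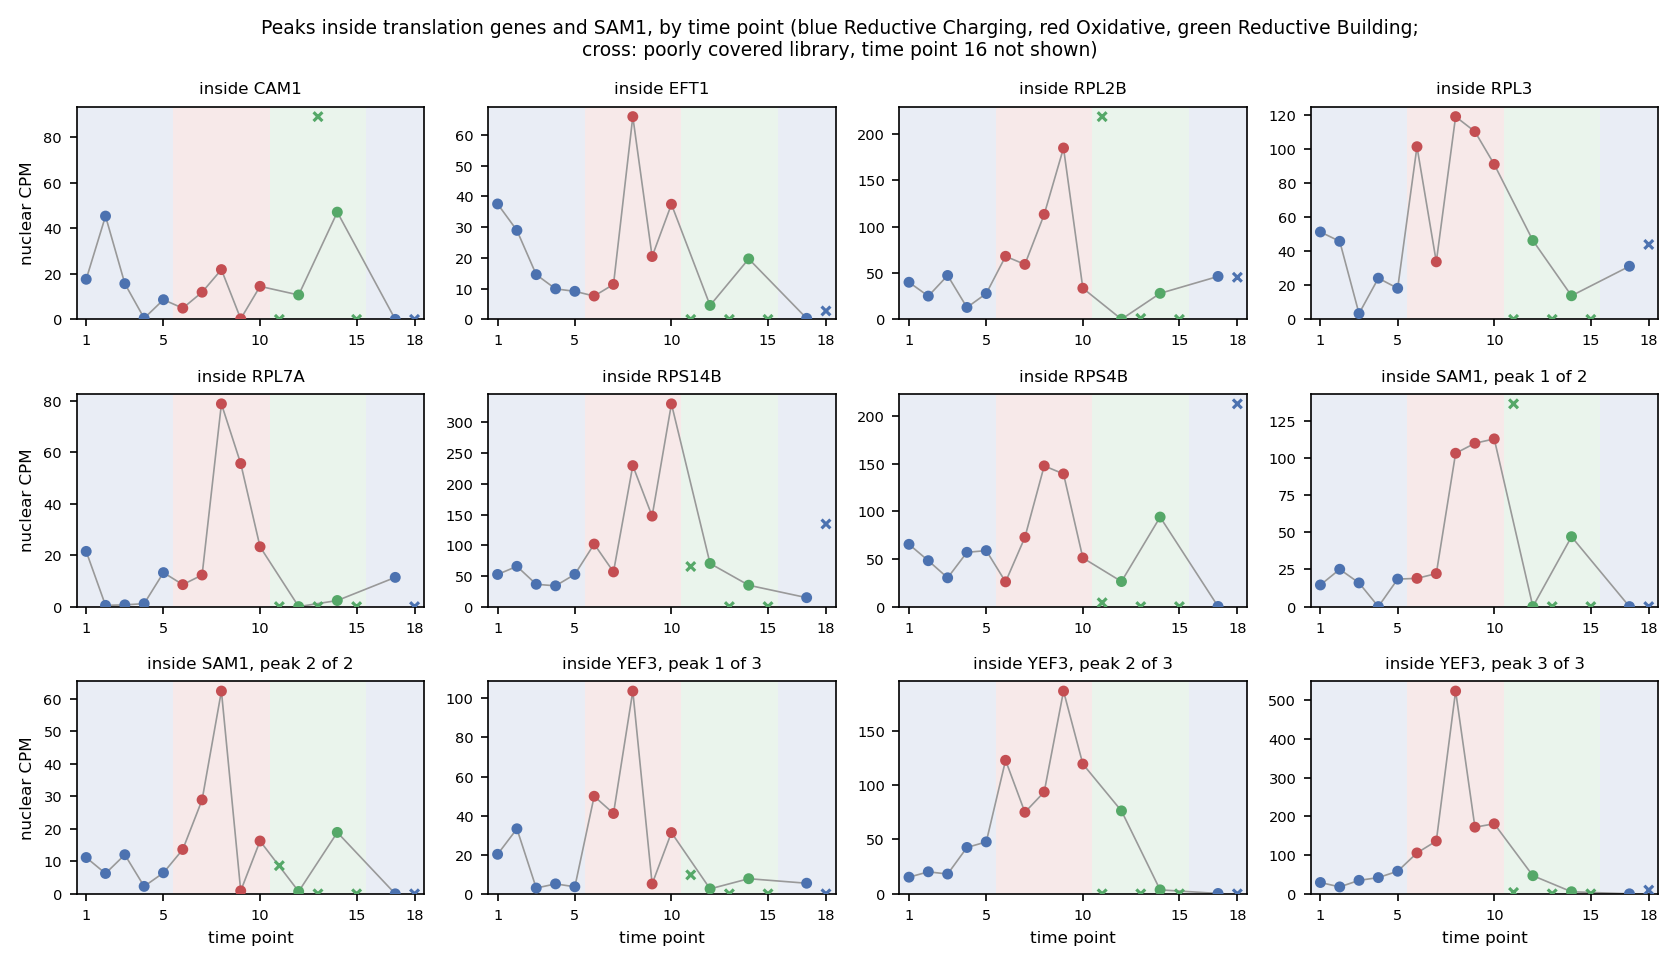
Nuclear CPM by time point for the 10 peaks inside genes of translation factors and ribosomal proteins and the 2 inside SAM1 (chosen after seeing their values); points are libraries coloured by phase, joined where well covered, and crosses are poorly covered libraries. In the third YEF3 peak the Oxidative libraries run from 106 to 523, against 0 to 58.3 in the well-covered Reductive Charging libraries, whereas in CAM1 the phases overlap.

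Other hosts with large positive fold changes for Oxidative over Reductive Charging were named after their values were seen. The peak inside FKS1, the catalytic subunit of glucan synthase, at chrXII:814876-815342, had 11.8, 27.8, 159, 177 and 112 nuclear CPM at time points 6 to 10, against 0, 8.07 and 23.1 in Reductive Charging and 4.00 and 9.35 at time points 12 and 14 (3.24 ± 1.11, edgeR adjusted p = 0.141). Log2 fold changes were 2.29 inside ECM33 and 2.06 inside GAS1, both cell wall proteins, 2.61 and 1.92 inside SAM1, an S-adenosylmethionine synthetase, 2.37 inside MET5, a sulfite reductase subunit, and 3.02 inside STE50, an adaptor of the mating and osmotic stress pathways. None of these passed the threshold. On the list of 54 cell wall and surface genes, 11 held a peak inside, among them FLO5, FLO9, FLO10 and FLO11 of the flocculin family, whose repeats make counts uncertain, and 1 (DSE1) had a peak at its 3' end. The median log2 fold change of these 12 peaks was 0.68, close to the 0.57 of all peaks inside genes, and none passed.

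Negative fold changes inside genes were fewer. JEN1, the lactate and pyruvate transporter, held the strongest of these named peaks, chrXI:23497-24064, 20 bp from its 3' end. It had 302, 158, 12.8, 3.44 and 75.3 nuclear CPM at time points 6 to 10, against 142, 259 and 369 in Reductive Charging and 103 and 317 at time points 12 and 14. Its Oxidative libraries thus spanned a wide range, with time points 8, 9 and 10 below every well-covered Reductive Charging library (-1.22 ± 0.72, edgeR adjusted p = 0.419). The peak inside PIR1, a cell wall protein, had 38.1, 18.9, 23.2, 18.8 and 30.6, against 12.2, 69.6 and 166 (-1.55 ± 0.71, edgeR adjusted p = 0.284). Peaks inside ADH2, FOX2 and PRB1, which serve ethanol oxidation, fatty acid oxidation and vacuolar proteolysis, had -0.98, -0.53 and -0.54, each within about 1 SE of 0.

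Fold changes inside genes were next set beside those at the starts of the same genes. Over the 77 peaks in genes with a gene-start peak, the log2 fold change inside correlated weakly with that at the start for Oxidative over Reductive Charging (Pearson's r 0.23, Spearman's rho 0.17, across peaks of the same libraries, a description). The median was 0.62 inside and -0.07 at the starts, and 59 of the 77 had the higher fold change inside. For Reductive Building over Reductive Charging the medians were 0.50 and 0.05, and 51 of 77 were higher inside. The 77 include peaks in Y' and Ty genes, which are not independent of each other. A gene with several peaks enters once per peak, each time against the same start peak.

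In the test of single peaks, few of the 351 passed. With all 18 libraries, edgeR's quasi-likelihood test with Benjamini-Hochberg adjustment at 0.05 called 0 of them in any comparison, as it called 0% of the 2086 peaks. An unadjusted p under 0.05 was reached by 11 of the 351 for Oxidative over Reductive Charging, 46 for Reductive Building over Oxidative and 35 for Reductive Building over Reductive Charging; DESeq2 called 0, 2 and 4, and limma-voom 0, 1 and 0. In the 13 well-covered libraries edgeR called 6 of the 351 for Oxidative over Reductive Charging (1.71%, against 2.78% of all peaks), 5 of them higher (1.49% of all peaks were) and 1 lower (1.29% of all peaks). It called 2 for Reductive Building over Oxidative (0.57%, against 1.49% of all peaks) and 1 for Reductive Building over Reductive Charging (0.285%, against 1.44%). All 3 were lower, a direction called for 0.911% and 0.767% of all peaks. By class, the 6 were 1 inside a gene, 3 at 3' ends and 2 in other intergenic DNA. These shares were below the background, and which peaks passed depended on single libraries: for Oxidative over Reductive Charging 0 passed without time point 1, 2, 8, 9 or 10, 1 without time point 3 or 4, 2 without time point 5, and 9 without time point 12 or 14. The following fold changes are therefore those of peaks whose call rests on the full set of 13.

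The peak at the 3' end of SPO77, a gene of spore wall formation, passed in 2 comparisons. It lies at chrXII:808613-809716, 281 bp upstream of the start of the glucan synthase gene FKS1, so it may belong to that gene's upstream region as much as to the 3' end. It had 1345, 1571, 2014, 2057 and 2309 nuclear CPM at time points 6 to 10, against 864, 1071 and 1169 as the lowest, median and highest in Reductive Charging, and 968 and 937 at time points 12 and 14 of Reductive Building. Every Oxidative library exceeded every well-covered library of the other phases. It rose in Oxidative over Reductive Charging (0.80 ± 0.15, edgeR adjusted p = 0.0215) and fell in Reductive Building over Oxidative (-0.93 ± 0.22, adjusted p = 0.0459). With all 18 libraries the fold changes were 1.02 ± 0.56 and -0.97 ± 0.63 and did not pass. The first call held in 17 of 22 alternative settings and the second in 8.

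Inside RPS14B, which encodes a protein of the small ribosomal subunit, chrX:74115-74600 ends 11 bp before the 3' end of the coding region. It had 102, 56.5, 229.6, 147 and 330.3 nuclear CPM in the Oxidative libraries, against 14.6, 44.4 and 65.6 in Reductive Charging, with time point 7 within the Reductive Charging range (2.02 ± 0.48, edgeR adjusted p = 0.0426). Time point 18, a poorly covered Reductive Charging library, had 135. Part of the counts of this peak may belong to the paralogue RPS14A. At the convergent 3' ends of TEF1 and GRS2, a glycyl-tRNA synthetase gene, chrXVI:700909-702109 had 128, 184, 589, 439.7 and 329 in the Oxidative libraries, against 87.3, 113 and 179, and time point 6 overlapped (1.42 ± 0.36, edgeR adjusted p = 0.0443). It had 55.2 and 98.8 at time points 12 and 14. The nearest coding start to this peak was that of TEF1 itself, so much of it may cover the TEF1 coding region.

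Between SBP1, an RNA-binding repressor of translation, and the 3' end of RPL8A, a large-subunit ribosomal protein gene, chrVIII:34431-35084 had 132, 148, 462, 525 and 298 nuclear CPM in the Oxidative libraries, against 35.8, 77.1 and 144 in Reductive Charging, with an overlap at time point 6 (1.91 ± 0.45, edgeR adjusted p = 0.0426). It had 49.2 and 35.0 at time points 12 and 14, below every Oxidative library, but that difference narrowly missed the threshold (-2.88 ± 0.73, edgeR adjusted p = 0.0507). It lies 354 bp upstream of the SBP1 start codon.

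Another peak, between the divergent genes AST2 and RPS8B, lies 270 bp from the start of RPS8B, a small-subunit ribosomal protein gene, at chrV:362143-362830. It had 446 and 484 nuclear CPM at time points 12 and 14 of Reductive Building, against 1118, 938, 1254, 1443 and 977 in the Oxidative libraries and 845, 943 and 1076 as the lowest, median and highest in Reductive Charging. Both Reductive Building libraries lay below all 11 other well-covered libraries. It fell in Reductive Building over Oxidative (-1.28 ± 0.25, edgeR adjusted p = 0.0165) and over Reductive Charging (-1.04 ± 0.24, adjusted p = 0.0413). The poorly covered Reductive Building time points 11 and 13 had 449 and 459, and time point 15 had no count there. Reductive Charging time point 18 had 1578.

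The remaining calls were 1 in each direction. Between BDS1, a sulfatase gene, and YOL163W, near the left end of chromosome XV, chrXV:8504-9078 had 145, 229, 373, 279 and 438 in the Oxidative libraries, against 60.2, 115 and 149 in Reductive Charging, overlapping at time point 6 (1.35 ± 0.33, edgeR adjusted p = 0.0426). At the 3' end of SUE1, which serves the turnover of unstable cytochrome c, chrXVI:830879-831117 had 57.9, 69.6, 13.5, 29.2 and 32.9 in the Oxidative libraries, against 33.8, 165 and 579 in Reductive Charging, with 217 and 149 at time points 12 and 14. Time point 5 lay within the Oxidative range and time point 17 far above the rest. The poorly covered Reductive Building time points 11 and 13 had 39.8 and 24.7, within the Oxidative range. The SUE1 peak was the only one of the 351 called lower in Oxidative over Reductive Charging (-2.48 ± 0.62, edgeR adjusted p = 0.0432). Without time point 17 the fold change was -1.75 and no longer passed (edgeR adjusted p = 0.0658). None of these calls passed with all 18 libraries, where SUE1 had -2.37 ± 0.94, SBP1 to RPL8A 2.08 ± 0.73 and RPS14B 1.59 ± 0.91.

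**Figure D5:**
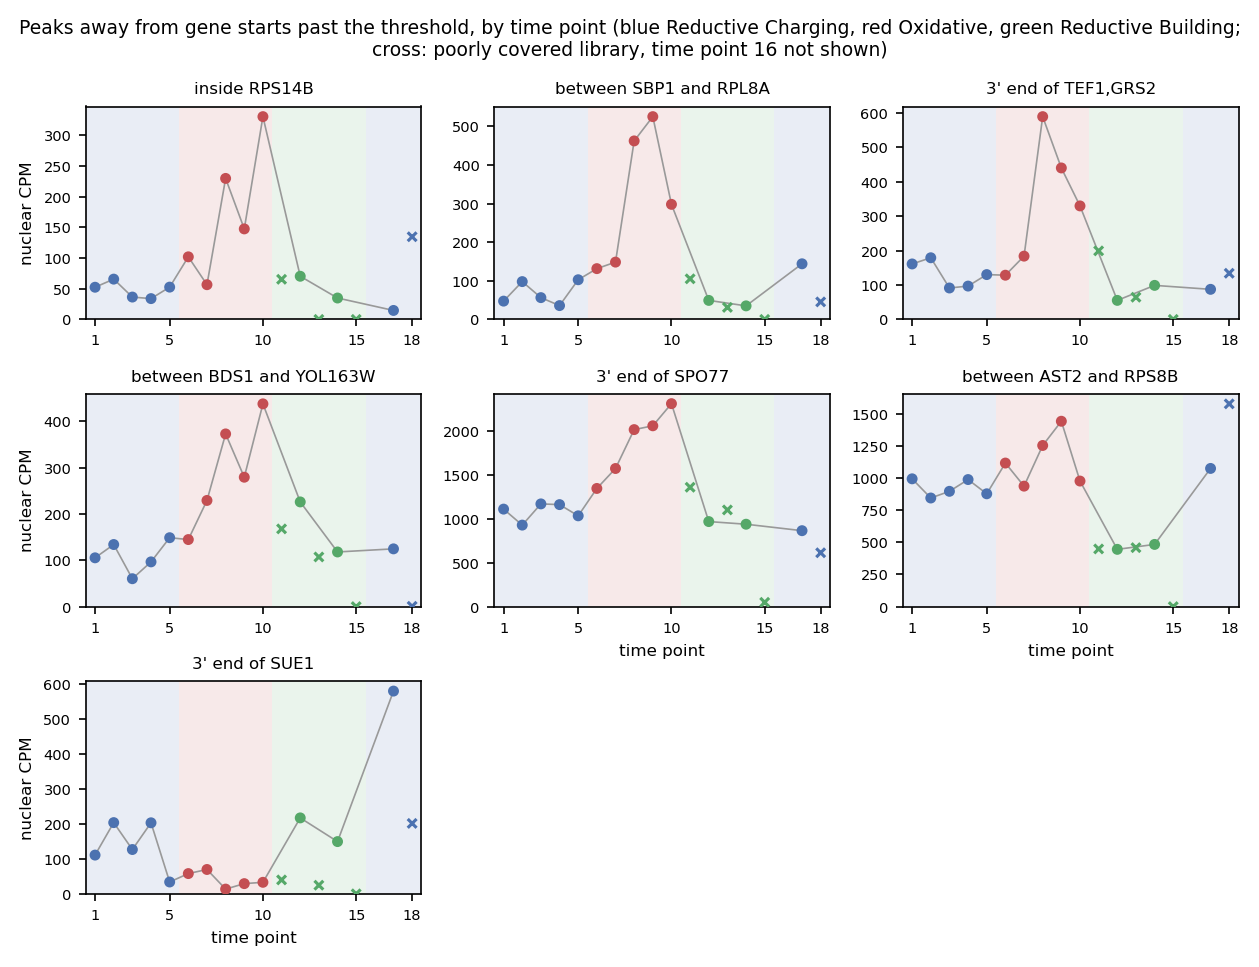
Nuclear CPM by time point for the 7 peaks away from gene starts that passed in a comparison of the 13 well-covered libraries; points are libraries coloured by phase, joined where well covered, and crosses are poorly covered libraries. The Oxidative libraries of SPO77 run from 1345 to 2309 and stand above all other points but the poorly covered time point 11, and those of SUE1 run from 13.5 to 69.6.

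Peaks at the 3' ends of genes of mitochondrial and acetate metabolism did not pass the test in any comparison. At the 3' end of CIT1, the citrate synthase of the citric acid cycle, chrXIV:629085-629631 had 576 and 344 nuclear CPM at time points 12 and 14 of Reductive Building, against 86.3, 125 and 219 as the lowest, median and highest in Reductive Charging, without overlap among well-covered libraries (1.78 ± 0.53, edgeR adjusted p = 0.144). Among poorly covered libraries, Reductive Building time points 11, 13 and 15 had 187, 404 and 0, and Reductive Charging time point 18 had 2.75. Time point 10, an Oxidative library, also reached 423. The 3' end of LSC2, a succinyl-CoA ligase subunit, had 482 and 70.5, against 1.36, 47.6 and 145. That of ACH1, an acetyl-CoA hydrolase of mitochondria, had 404 and 93.2, against 38.6, 67.0 and 114. In these last, time point 12 was high and time point 14 was within the Reductive Charging range.

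At the 3' end of ALD4, a mitochondrial aldehyde dehydrogenase, chrXV:1040534-1041496 had 862, 675, 250.1, 323 and 261 at time points 6 to 10, against 706, 825 and 985 in Reductive Charging. Time points 7 to 10 lay below every well-covered Reductive Charging library (-0.87 ± 0.29, edgeR adjusted p = 0.119). The nearest coding start to the ALD4 peak was that of ALD4 itself, so much of it may cover coding sequence. Where the 3' ends of STI1, a cochaperone, and CIN5, a stress regulator, converge, chrXV:382814-383636 had 215, 279, 97.1, 126 and 126 in the Oxidative libraries, against 299.7, 372 and 456, without overlap among well-covered libraries (-1.19 ± 0.41, edgeR adjusted p = 0.141). Reductive Charging time point 18, poorly covered, had 117, within the Oxidative range.

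Inside FTR1, the high-affinity iron permease, chrV:461244-461462 had 54.1 and 115 nuclear CPM at time points 12 and 14, against 3.18, 7.09 and 15.8 in Reductive Charging (3.24 ± 0.92, edgeR adjusted p = 0.122). Among poorly covered libraries, Reductive Building time points 11 and 13 had 34.7 and 1.07, and Reductive Charging time point 18 had 123, above all of these. Between SNO4 and ERR3, near the right end of chromosome XIII, chrXIII:919434-919832 had 273 and 301 at those time points, against 104, 135, 74.2, 88.2 and 149 in the Oxidative libraries; the well-covered libraries of these phases did not overlap, and the difference narrowly missed the threshold (1.42 ± 0.35, edgeR adjusted p = 0.0507). The poorly covered Reductive Building time points 11, 13 and 15 had 30.1, 13.9 and 0, below every Oxidative library.

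On the list of transcription regulators, more peaks had a listed gene as a neighbour than as a host. Every peak outside genes has some gene as its nearest start. The 113 peaks at 3' ends and 116 in other intergenic DNA together outnumber the 122 inside genes. Such an excess of neighbours need therefore not be particular to regulators. Of 69 genes on the list of transcription regulators, 1 held a peak inside (UME6) and 3 had one at the 3' end (HSF1, CIN5 and MET31), while 9 peaks outside genes had a regulator as the nearest start, with GIS1, MSN2, NRG1, SWI4, STE12, CIN5 and LYS14 once each and TYE7 for 2. The peak at the 3' ends of STI1 and CIN5 counts in both the 3 and the 9, as its nearest start is that of CIN5. None of the peaks inside or at the 3' ends of regulators passed. At the 3' end of HSF1, the heat-shock factor gene, chrVII:370974-371710 had 398, 274, 349.7, 509 and 392 in the Oxidative libraries, against 282, 313 and 338 in Reductive Charging, and it also lay 302 bp from the start of AFT1, an iron regulator. None of the 11 histone genes had a peak inside or at its 3' end, and of 20 genes of trehalose and glycogen metabolism only NTH2 had one, at its 3' end, with a log2 fold change of 0.08. Such peaks were rare among all genes: 102 of the 6002 nuclear coding genes held a peak inside, and 113 peaks lay at 3' ends. At that rate, lists of 11 and 20 genes would hold few or none.

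As a share of nuclear counts over all 18 libraries, peaks inside genes held 0.88% ± 0.32 in Reductive Charging (n = 8), 1.05% ± 0.31 in Oxidative (n = 5) and 1.04% ± 0.11 in Reductive Building (n = 5). Peaks at 3' ends held 5.56% ± 1.21, 5.61% ± 0.80 and 8.02% ± 3.93, and other intergenic peaks 4.61% ± 0.28, 4.75% ± 0.22 and 5.15% ± 1.12. The highest shares at 3' ends, 13.8% and 10.3%, came from the poorly covered time points 15 and 11, whereas without the poorly covered libraries 3' ends held 6.13%, 5.61% and 5.71%. Inside genes the well-covered libraries gave 1.05% ± 0.31 in Oxidative, against 0.71% ± 0.08 in Reductive Charging, where 3 of 5 Oxidative libraries exceeded all 6. Both well-covered Reductive Building libraries, with 1.01% each, also exceeded all 6, whose highest share was 0.838%. Time points 16 and 18, poorly covered Reductive Charging libraries, had 1.51% and 1.26%.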

How the data were processed

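Per the labels, cells were fixed with formaldehyde, their walls digested and their nuclei treated with transposase. The authors deposited raw read counts per peak for 1 list of 2086 peaks in 18 libraries. Build R64 and the tools MACS2, Bowtie2 and Trimmomatic are named in the submitters' processing notes. Their versions, the counting tool, insertion-site shifts and the handling of duplicate or multiply mapping reads are not given there, so duplicates may make counts less independent than they look. All columns were matched to samples by name.

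Deposited peak starts count from 0 and were written 1-based. Peaks were placed against RefSeq R64 genes, with strand from the systematic name. Chromosome ends were taken as the last gene or peak. Densities are nuclear CPM per kb. A library was called well-covered with at most 10% of nuclear peaks at 0. Differences were tested on the whole table with edgeR 4.0.16 (TMM scaling, a quasi-likelihood F test with robust dispersion; filterByExpr removed no peak) in R 4.3.3, adjusted by Benjamini-Hochberg over all peaks. Each standard error is the fold change divided by the square root of F. Counts limit weak peaks: 3 counts, the limit a count of 0 allows, equal 0.24 to 1.45 nuclear CPM in the well-covered libraries and 325 at time point 16; this covers counting error only.

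The members, lists and well-covered set were chosen with earlier results of these data known. Named peaks were the 5 strongest and the weakest of each class, the largest changes past the threshold, the 3 smallest p where fewer than 3 passed, and up to 2 per gene list; 15 peaks, the Y' and Ty gene lists and limma-voom with quality weights were added after seeing the data. Alternatives were DESeq2 1.42.0, limma-voom 3.58.1, other scalings and filters, other distances and each library left out. The fits were tested on simulated data for Oxidative over Reductive Charging. With all 18 libraries the fit recovered 4.48% of 2-fold and 28.4% of 4-fold changes, with 0 false calls. With the 13 it recovered 43.3% and 82.1%, with 7 false calls. The lack of calls with all 18 libraries therefore does not show a lack of change.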

Additional observations from a re-analysis of the deposited data

Results flagged for a closer look

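At the 3' end of SUE1 the Reductive Charging library of time point 17 had 579 nuclear CPM, and the nearest of the other 5 well-covered Reductive Charging libraries had 204, so its distance to the nearest was 0.69 of the group's range. Without time point 17 the log2 fold change of Oxidative over Reductive Charging was -1.75, against -2.48 with it. The share of nuclear counts in peaks inside genes was 1.24% at the Reductive Building time point 13, a poorly covered library, and the nearest of the other 4 Reductive Building libraries had 1.01% (0.86 of the range). In all, 29 groups of libraries were examined for such gaps, and chance gives about 1 in 20.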

How the results depend on the processing

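None of the 9 calls in the 13 well-covered libraries changed direction in any of 22 alternative settings, but each was lost in 4 to 14 of them; SPO77 for Oxidative over Reductive Charging held in 17 and RPS8B for Reductive Building over Oxidative in 18. Leaving out 1 library moved the calls between 0 and 9 for Oxidative over Reductive Charging, 1 and 14 for Reductive Building over Oxidative (14 without time point 14, 10 without 17, 4 without 6 or 7, 3 without 10, 1 without each of the rest) and 0 and 15 for Reductive Building over Reductive Charging (15 without time point 14, 3 without 17, 2 without 10, 1 without 5, 7, 9 or 12, 0 without each of the rest); the cause was not tested. Both Reductive Building comparisons rest on 2 libraries, and without 1 of them the lone library is assumed to vary like the other phases. With all 18 libraries calls stayed at 0 without any one library, except 8 and 10 for Reductive Building over Oxidative and over Reductive Charging without time point 14.

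For Oxidative over Reductive Charging in the 13 libraries, 14 peaks passed with DESeq2, 2 with limma-voom, 10 with its quality weights, 12 with total-count scaling, 2 when no coding 5' end was allowed within 500 bp and 12 with 100 bp. For Reductive Building over Oxidative DESeq2 gave 10, limma-voom 5, nuclear peaks only 1, and quality weights, total-count scaling, the 500 bp limit and only the 2 phases compared gave 0. For Reductive Building over Reductive Charging DESeq2 gave 3, the 100 bp limit 2, and limma-voom, quality weights, total-count scaling, the 500 bp limit and only the 2 phases gave 0. In all 18 libraries, quality weights gave 14 for Oxidative over Reductive Charging, DESeq2 gave 2 and 4 for Reductive Building over Oxidative and over Reductive Charging, and limma-voom gave 1 for Reductive Building over Oxidative. The median log2 fold change inside genes minus that at gene starts lay between 0.41 and 0.72 for Oxidative over Reductive Charging in 23 settings of the 13 libraries and between 0.44 and 0.63 for Reductive Building over Reductive Charging, whereas for Reductive Building over Oxidative it ran from -0.25 to 0.07 and changed sign. In 28 settings of all 18 libraries it ran from 0.12 (without time point 10) to 0.50 (without time point 18), from 0.26 to 0.64 and from -0.08 to 0.37 in the same comparisons.

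Moving the 5' limit to 500 bp, which leaves 206 peaks, lowered the shares of nuclear counts to 0.55% in Reductive Charging and 0.819% in Reductive Building inside genes, 2.61% in Reductive Charging and 2.36% in Oxidative at 3' ends, and 1.92%, 2.05% and 2.42% in Reductive Charging, Oxidative and Reductive Building in other intergenic DNA. A 3' limit of 250 bp gave 3.87% and 4.19% in Reductive Charging and Oxidative for the last class, and requiring the 3' end in the peak gave 4.91% and 5.04%. The log2 ratio of the class median to gene starts in Reductive Charging, Oxidative and Reductive Building was -2.40, -1.75 and -1.85 inside genes, -0.98, -0.89 and -0.90 at 3' ends and -0.59, -0.72 and -0.68 in other intergenic DNA without division by length. With the 500 bp limit it was -0.80 and -0.94 at 3' ends in Reductive Charging and Oxidative and -0.15 and -0.29 in other intergenic DNA in Oxidative and Reductive Building. With the 3' end required in the peak it was -0.34 and -0.42 at 3' ends in Oxidative and Reductive Building and -0.35, -0.41 and -0.46 in other intergenic DNA, which had -0.36 in Reductive Building with a 3' limit of 250 bp. By phase mean, the class inside genes stayed the weakest in each of these. With the 3' end required in the peak, other intergenic DNA fell below 3' ends in Oxidative and Reductive Building. Single libraries could differ under the main rule. At time point 8 the ratio was -0.42 inside genes and -0.47 at 3' ends. At the poorly covered time point 18 it was -0.05 inside genes, -0.84 at 3' ends and -1.15 in other intergenic DNA. Time points 15 and 16, where class medians were 0, gave no ratio. With the other poorly covered libraries included, Reductive Charging (n = 7) and Reductive Building (n = 4) had -1.48 and -1.97 inside genes. At 3' ends they had -0.60 and -0.36, and in other intergenic DNA -0.35 and -0.77. No paired analysis was possible because the labels give no replicate numbers that groups share.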
